A study of Mus musculus with 2 samples.

Results

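Messenger RNAs of p53 and 9 genes of its stress response were compared between C2C12 cells transfected with an siRNA against *Malat1* (si*Malat1*) and C2C12 cells transfected with a negative control oligo (siNC). The 10 genes were taken by symbol from the deposited table of 22095 genes, and each had 1 row there. They are *Trp53*, which encodes p53, its inhibitor *Mdm2*, the arrest and feedback genes *Ccng1*, *Gadd45a*, *Zmat3* and *Trp53inp1*, and the death genes *Bax*, *Bbc3*, *Pmaip1* and *Perp*. C2C12 is a line of mouse myoblasts, which stop dividing and form multinucleate myotubes when serum is withdrawn. Both cultures had been kept for 2 days in differentiation medium with horse serum. The study sequenced polyadenylated RNA from 1 library of each culture, so the spread between cultures is unknown and no p-value is given. *Malat1*, the target of the siRNA, stood at 34.2 FPKM in si*Malat1* and at 41.8 FPKM in siNC, a ratio of 0.819. This is within 1.5-fold, and 10.5% of the 11099 genes compared below had a lower ratio. The paper reports that quantitative PCR showed the knockdown of *Malat1* in the samples used for sequencing. By FPKM alone the depth of the knockdown in this library is uncertain, which bears on every value labelled si*Malat1*.

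p53 is a transcription factor that is held at a low level in unstressed cells because the ligase Mdm2 marks it for degradation. After DNA damage or other stress the protein is stabilized, mostly without a change in its mRNA, and turns on genes that stop the cell cycle, repair DNA or start apoptosis. *Mdm2* is itself a target, which closes a feedback loop, and several targets, *Gadd45a* and *Pmaip1* among them, can also be turned on by other stress pathways. In differentiating myoblasts the target *Cdkn1a*, which takes part in cell cycle exit, is known to be turned on by MyoD without p53.

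Of the 10 genes, *Gadd45a* alone differed by more than 1.5-fold among the 9 that averaged 1 FPKM or more over the libraries, and it was higher in si*Malat1*. FPKM are fragments scaled to the length of the transcript and the depth of the library, so levels of different genes can be set side by side. *Gadd45a* stood at 227 FPKM in si*Malat1* and at 143 FPKM in siNC, a ratio of 1.59. Ratios are also given as log2 ratios of si*Malat1* over siNC after 0.1 FPKM was added to each value, which makes ratios of low genes too small, and the log2 ratio of *Gadd45a* was 0.67. Among the 11099 genes that were above 0 in both libraries and averaged 1 FPKM or more (the genes tested here), 2.29% were higher by 1.5-fold or more in si*Malat1* and 1.75% were lower. Of p53 and its targets, 1 of 9 was past that fold on the higher side and 0 of 9 on the lower side, and no test of these counts was made. Their median log2 ratio was -0.05, and that of all 11099 genes was -0.04.

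**Figure D1:**
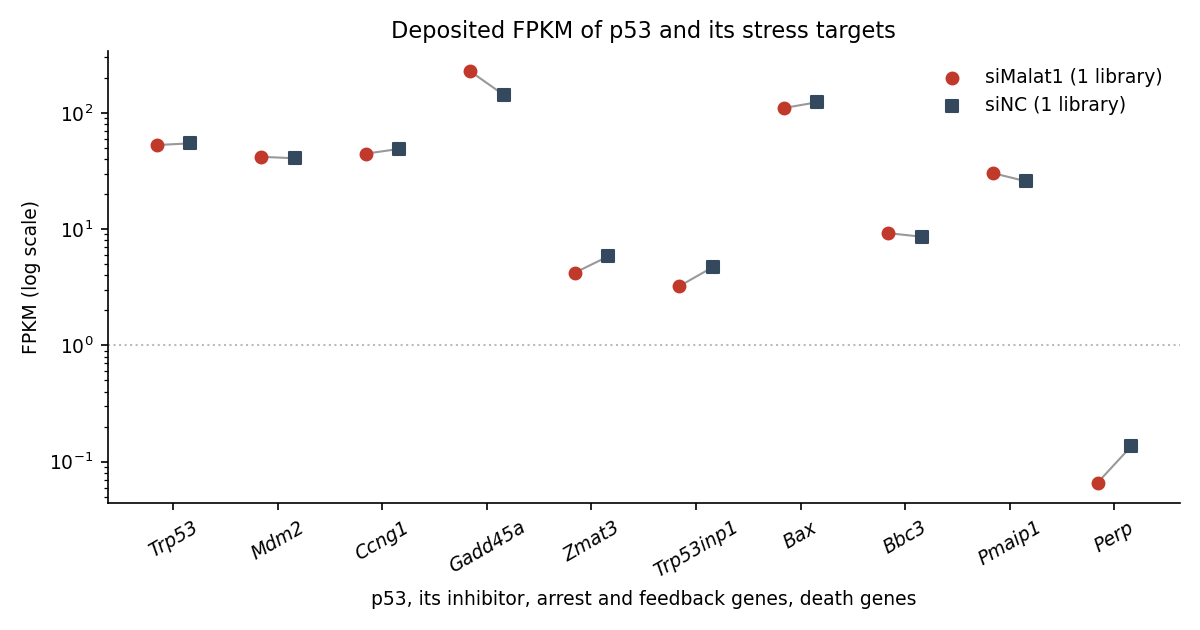
Deposited FPKM (log scale) of p53 and its stress targets in the si*Malat1* library (circles) and the siNC library (squares), ordered by role, with a dotted line at 1 FPKM. *Gadd45a* has the widest gap above 1 FPKM on the higher side, at 227 FPKM in si*Malat1* and 143 FPKM in siNC, and *Perp* lies far below the other genes in both libraries.

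The sequences at the start sites are shown because the genes were grouped as targets of p53, which binds pairs of a 10-base element, the p53 decamer. Its consensus has 3 purines, the core C, A or T, A or T, G, and 3 pyrimidines, and it reads the same on both strands. The windows run from 250 bases before to 50 bases after each start site annotated by RefSeq in GRCm38.p6, a later build than the mm9 of the expression table, and no coordinates were carried from one build to the other. Windows were held for 6 of the 10 genes, and 5 of those 6 genes have an exact decamer, which 8.36% of all 32851 windows hold. Each is printed below with 10 bases on either side, 5′ to 3′ on the strand of the gene, with the decamer in capitals. The decamers begin 40, 201, 186, 185 and 75 bases before the RefSeq start sites, in the order printed.
*Gadd45a*, minus strand, chr6:67037428-67037457: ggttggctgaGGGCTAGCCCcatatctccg
*Bax*, minus strand, chr7:45467080-45467109: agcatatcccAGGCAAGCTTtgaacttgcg
*Mdm2*, minus strand, chr10:117710925-117710954: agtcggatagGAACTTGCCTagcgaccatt
*Ccng1*, minus strand, chr11:40755452-40755481: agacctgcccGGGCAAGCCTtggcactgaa
*Trp53*, plus strand, chr11:69580274-69580303: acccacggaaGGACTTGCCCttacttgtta

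In the *Ccng1* window the 10 bases just before the decamer, AGACCTGCCC, differ from the consensus at 1 position of the core, so they are a near match and not a second decamer. In the *Bax* window a near match, AAGCATATCC, also with 1 mismatch in the core, lies 1 base from the exact decamer. The best near match within 13 bases has 2 mismatches in the *Gadd45a* window, 3 in that of *Trp53* and 4 in that of *Mdm2*. Each near match was the best of all placements within 13 bases on either side. The share of all windows with one as close was not taken. *Bbc3* has 3 annotated start sites, and its windows come no nearer to the decamer than 1 mismatch. The decamer of *Gadd45a* lies before the RefSeq start but at bases 11 to 20 of the gene as annotated by GENCODE M21, whose start is 50 bases further upstream. A match of letters is not a site of binding, and the expression table holds no measure of p53 at these windows. Sequence outside the windows, where elements of these genes can also lie, was not searched.

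The *Gadd45a* window also holds 2 octamers (ATTTGCAT on either strand) and a CCAAT box (CCAAT on either strand), elements through which *Gadd45a* is known to be turned on without p53. They were searched after the window had been read. Of all windows, 1.74% hold an octamer, 0.107% hold 2 or more, and 37.4% hold a CCAAT box. The stretch from 110 to 51 bases before the start site is printed because it holds all of these matches, which are in capitals.
*Gadd45a*, minus strand, chr6:67037458-67037517: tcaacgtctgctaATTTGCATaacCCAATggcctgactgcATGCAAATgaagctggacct
The downstream octamer overlaps the only E-box of the window (CANNTG, the element bound by MyoD and other factors). An E-box is held by 6 of the 8 windows of these genes and by 72.3% of all windows.

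**Figure D2:**
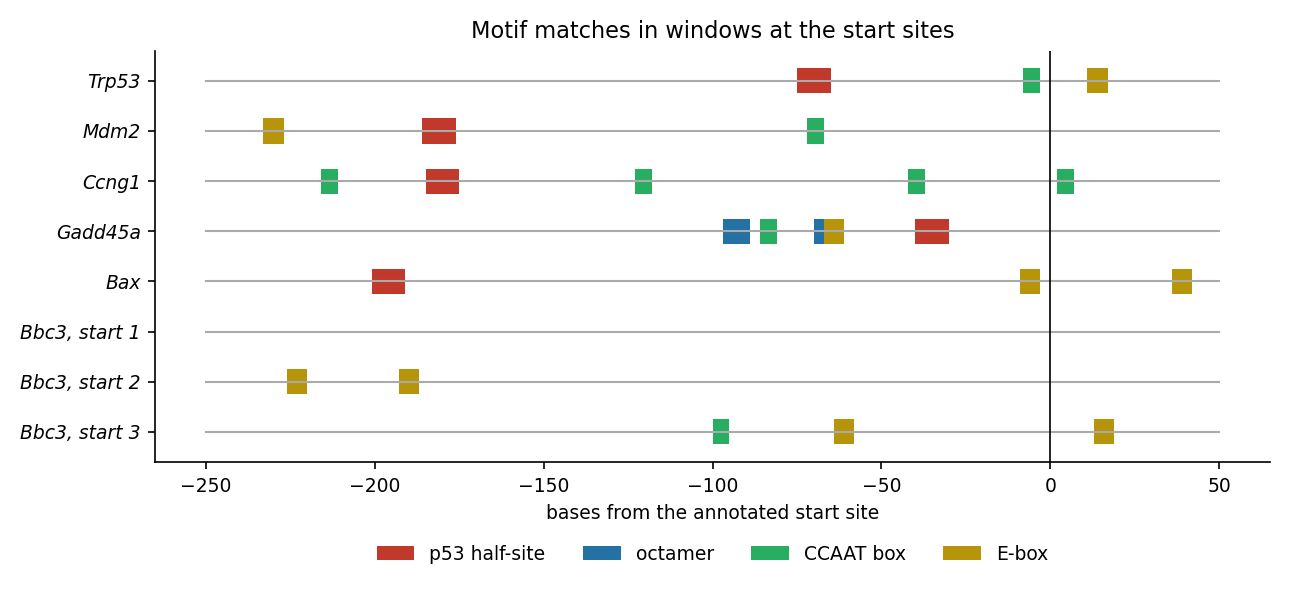
Matches to the p53 decamer (p53 half-site in the legend), the octamer, the CCAAT box and the E-box in the 8 windows of 6 genes, by distance in bases from the RefSeq start site (vertical line). The decamer is present for *Trp53*, *Mdm2*, *Ccng1*, *Gadd45a* and *Bax* and for none of the 3 start sites of *Bbc3*, and the octamer is seen in *Gadd45a* alone of these windows.

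p53 and its inhibitor had nearly the same mRNA level in both libraries. *Trp53* stood at 52.8 FPKM in si*Malat1* and at 54.6 FPKM in siNC, a log2 ratio of -0.05. Its locus in mm9 is on chromosome 11, bases 69393861 to 69405375. *Mdm2* stood at 41.8 FPKM in si*Malat1* and at 40.6 FPKM in siNC, a log2 ratio of 0.04, whose sign turned to -0.01 when the libraries were scaled to the same sum of FPKM. Neither gene was near 1.5-fold, and the level of *Mdm2* was 0.792 times that of *Trp53* in si*Malat1* and 0.745 times in siNC. *Mdm4*, a relative of *Mdm2* that also inhibits p53, stood at 4.62 FPKM in si*Malat1* and 4.88 FPKM in siNC. *Mdm2* occupies bases 117125961 to 117147772 of chromosome 10 in mm9. The mRNA does not report the amount or activity of the p53 protein.

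*Gadd45a* encodes a small protein that binds PCNA and cell cycle kinases and activates stress kinase signaling. In mm9 it occupies bases 66985090 to 66987401 of chromosome 6, and no other gene of the table shares its locus. It was the most abundant of the 10 genes in both libraries, above 98.5% of all listed genes in si*Malat1* and above 97.4% in siNC. Its log2 ratio was higher than that of 98.2% of the genes tested. Strongly expressed genes differed more often on the higher side, since 3.3% of the 879 genes with a mean of 100 FPKM or more were past 1.5-fold on the higher side in si*Malat1* and 0.228% on the lower side. The log2 ratio of *Gadd45a* was above the 95th percentile of that range, 0.43.

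Neither paralog of *Gadd45a* was past 1.5-fold. *Gadd45b* stood at 18.9 FPKM in si*Malat1* and 17.3 FPKM in siNC, a log2 ratio of 0.13. *Gadd45g* stood at 70.9 FPKM in si*Malat1* and 100.1 FPKM in siNC, a log2 ratio of -0.50, short of 1.5-fold. It lay below the 5th percentile, -0.31, of tested genes with a mean of 20 to 100 FPKM, the range that holds *Gadd45g*. *Gadd45a* was thus 3.20 times as abundant as *Gadd45g* in si*Malat1* and 1.42 times in siNC.

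The other arrest and feedback genes had the lower FPKM in si*Malat1*, all within 1.5-fold. The higher FPKM was in si*Malat1* for 42.6% of all tested genes. *Ccng1* encodes cyclin G1, which brings a phosphatase to Mdm2, and it stood at 44.5 FPKM in si*Malat1* and 48.9 FPKM in siNC, a log2 ratio of -0.14. *Zmat3* encodes a zinc finger protein that binds RNA, and it stood at 4.21 FPKM in si*Malat1* and 5.83 FPKM in siNC, a log2 ratio of -0.46. *Trp53inp1* encodes a nuclear protein that promotes the phosphorylation of p53 and also acts in autophagy, and it stood at 3.23 FPKM in si*Malat1* and 4.71 FPKM in siNC, a log2 ratio of -0.53. *Zmat3* and *Trp53inp1* were thus the genes nearest to the 1.5-fold line on the lower side, with 3.52% and 2.27% of the tested genes below them in log2 ratio. They are also the least abundant of the 9. Among the 2533 genes with a mean of 1 to 5 FPKM, where *Trp53inp1* lies, 4.66% were past 1.5-fold on the lower side and 5.01% on the higher side, and the 5th percentile of log2 ratios was -0.56, below the value of *Trp53inp1*. Among the 4215 genes of 5 to 20 FPKM, where *Zmat3* and *Bbc3* lie, 1.45% were past it on the lower side and 1.52% on the higher side, and the 5th percentile was -0.38, above the value of *Zmat3*. The mean of *Zmat3*, 5.02 FPKM, is at the edge of this range. Its value is not below the 5th percentile of the 1 to 5 FPKM range, so this reading depends on the edge. *Zmat3* shares its locus, on chromosome 3 of mm9 from 32233716 to 32266360, with the transcript *4930429B21Rik* (0.473 FPKM in si*Malat1* and 0.390 FPKM in siNC), so its FPKM are less certain. In mm9 *Ccng1* is on chromosome 11 (40562054 to 40568788) and *Trp53inp1* on chromosome 4 (11083588 to 11101524).

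**Figure D3:**
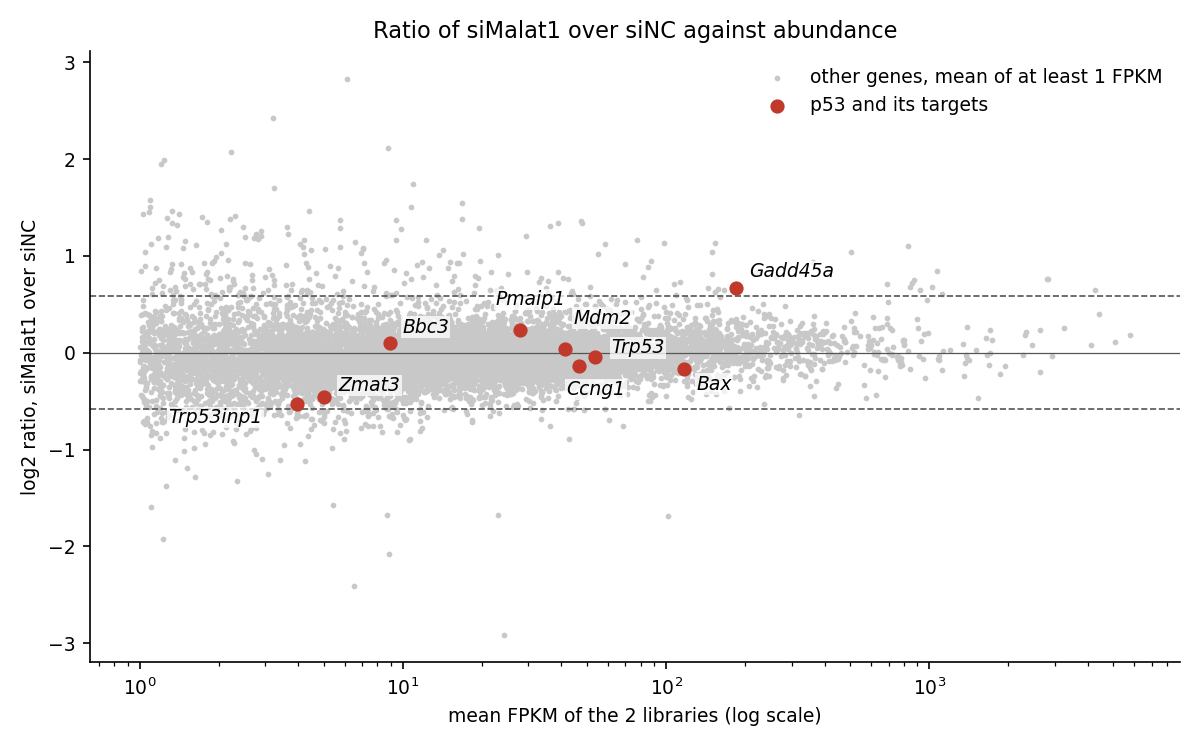
Log2 ratio of si*Malat1* over siNC against the mean FPKM of the 2 libraries (log scale) for the 11099 tested genes (gray) and the 9 of p53 and its targets among them (red), with dashed lines at 1.5-fold. *Gadd45a* (0.67) lies above the upper line, and *Trp53inp1* (-0.53) and *Zmat3* (-0.46) lie inside the lower line at the low end of FPKM.

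The death genes that were expressed differed by less than 25% of the lower value. *Bax*, which opens the outer mitochondrial membrane in apoptosis, was the second most abundant of the 10 genes, at 109.9 FPKM in si*Malat1* and 123 FPKM in siNC, a log2 ratio of -0.17. *Bbc3* encodes Puma and *Pmaip1* encodes Noxa, small proteins that bind and neutralize the survival members of the Bcl2 family. *Bbc3* stood at 9.22 FPKM in si*Malat1* and 8.59 FPKM in siNC, a log2 ratio of 0.10. *Pmaip1* stood at 30.2 FPKM in si*Malat1* and 25.7 FPKM in siNC, a log2 ratio of 0.23, which was higher than that of 89.6% of the tested genes. *Pmaip1*, *Mdm2*, *Ccng1* and *Trp53* fall in the range of 20 to 100 FPKM, in which 0.979% of 3472 genes were past 1.5-fold on the higher side and 0.374% on the lower side. *Perp*, a membrane protein of desmosomes that takes part in p53-dependent death, was near the bottom of the table, at 0.066 FPKM in si*Malat1* and 0.135 FPKM in siNC. Its values are too low to be read as a difference, and it was left out of all counts. *Bax* (52717065 to 52722268) and *Bbc3* (16894932 to 16903683) are on chromosome 7 of mm9, *Pmaip1* (66618258 to 66625212) on chromosome 18 and *Perp* (18564877 to 18576878) on chromosome 10.

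Ordered by level, the genes ran in the same order in both libraries, namely *Gadd45a*, *Bax*, *Trp53*, *Ccng1*, *Mdm2*, *Pmaip1*, *Bbc3*, *Zmat3*, *Trp53inp1* and *Perp*. With 1 library of each kind, there is no spread from which to say whether neighbors in this order differ. On the lower side of 0 lay 5 of the 9 genes and on the higher side 4, or 3 when the libraries were scaled to the same sum of FPKM and *Mdm2* changed sign. Without such scaling, 42.6% of all tested genes had the higher FPKM in si*Malat1*, so this split is not particular to the 9 genes. Of the 9 genes, 6 differed by less than 25% of the lower value, as did 85.1% of all tested genes.

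The rest of the p53 pathway was described from lists of textbook members, drawn up with earlier results of these data known. Of 17 genes that control p53, 14 averaged 1 FPKM or more, 0 were past 1.5-fold in either direction, and the median log2 ratio was -0.08. Of all tested genes, 2.29% were past 1.5-fold on the higher side in si*Malat1* and 1.75% on the lower side. The ribosomal proteins *Rpl5* (577 FPKM in si*Malat1* and 511 FPKM in siNC) and *Rpl11* (358 FPKM in si*Malat1* and 312 FPKM in siNC), which bind Mdm2 when ribosome assembly fails, were the most abundant of them, and *Rpl5* shares its locus with another gene. *Cdkn2a*, which encodes the Mdm2 inhibitor Arf, and *Trp63* of the p53 family were listed at 0 in both libraries, and *Trp73* was listed at 0 in si*Malat1* and at 0.003 FPKM in siNC. A listed 0 can be a failed estimate in such tables.

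Of 22 further targets that act in arrest, repair and metabolism, 2 were past 1.5-fold, both lower in si*Malat1*, and 0 were past it on the higher side, or 1 (*Sesn2*) when the libraries were scaled by the median ratio or the upper quartile. The lower ones were *Psrc1* (1.77 FPKM in si*Malat1* and 3.66 FPKM in siNC, log2 ratio -1.01) and *Ckap2* (5.08 FPKM in si*Malat1* and 8.78 FPKM in siNC, log2 ratio -0.78), whose proteins bind spindle microtubules in mitosis. Of all tested genes, 1.75% were past 1.5-fold on the lower side and 2.29% on the higher side. Among genes of 1 to 5 FPKM, where *Psrc1* lies, 4.66% were past it on the lower side. The median log2 ratio of the list was -0.01. *Cdkn1a*, the p21 inhibitor of cyclin-dependent kinases, was its most abundant gene, at 1004 FPKM in si*Malat1* and 786 FPKM in siNC. Its log2 ratio of 0.35 lay within 1.5-fold and was higher than that of 94.4% of the tested genes. The antioxidant enzyme gene *Gpx1* followed, at 209.6 FPKM in si*Malat1* and 217 FPKM in siNC.

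The expressed genes of the death machinery lists were within 1.5-fold, as were nearly all tested genes. Of the 11099 tested genes, 2.29% were past it on the higher side in si*Malat1* and 1.75% on the lower side. A count of 0 in a list this short is therefore not a trait of the list. Of 12 expressed death targets of p53 other than those above, 0 were past 1.5-fold and the median log2 ratio was 0.03. The most abundant were *Bid*, at 32.1 FPKM in si*Malat1* and 34.2 FPKM in siNC, and *Steap3*, at 30.9 FPKM in si*Malat1* and 33.5 FPKM in siNC. The death receptor *Eda2r*, named here after its values were seen, came nearest to the line (24.0 FPKM in si*Malat1* and 16.7 FPKM in siNC, log2 ratio 0.52). Of 13 expressed genes of the Bcl2 family outside the 10 genes, 0 were past 1.5-fold, with a median log2 ratio of 0.03. *Bak1*, the partner of *Bax*, stood at 58.8 FPKM in si*Malat1* and 57.1 FPKM in siNC, and the survival gene *Mcl1* at 44.8 FPKM in si*Malat1* and 41.9 FPKM in siNC. *Bax* was 2.45 times as abundant as *Mcl1* in si*Malat1* and 2.94 times in siNC. Of 13 expressed caspases and apoptosome genes, 0 were past 1.5-fold, with a median log2 ratio of 0.04. *Diablo*, which releases caspases from their inhibitors and shares its locus with another gene, stood at 29.9 FPKM in si*Malat1* and 28.8 FPKM in siNC. Among 5 expressed paralogs of the 10 genes, 0 were past 1.5-fold, and the median log2 ratio was 0.04. After *Gadd45g*, the autophagy gene *Trp53inp2* was the most abundant of them, at 81.1 FPKM in si*Malat1* and 69.98 FPKM in siNC.

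The list of the ATF4 and CHOP pathway, which responds to shortage of amino acids and to stress of the endoplasmic reticulum and which is known to turn on *Gadd45a*, *Bbc3*, *Pmaip1* and *Sesn2* in other cells, had more genes past the fold. Of its 10 genes, 4 were past 1.5-fold on the higher side in si*Malat1* and 0 on the lower side, and the median log2 ratio was 0.55. Of all tested genes, 2.29% were past it on the higher side and 1.75% on the lower side. The pseudokinase *Trib3* stood at 15.9 FPKM in si*Malat1* and 5.53 FPKM in siNC, and *Chac1*, which degrades glutathione, at 40.9 FPKM in si*Malat1* and 17.7 FPKM in siNC. The asparagine synthetase *Asns* stood at 107 FPKM in si*Malat1* and 47.6 FPKM in siNC, and the transcription factor *Atf3* at 9.36 FPKM in si*Malat1* and 4.53 FPKM in siNC. These were the 4 genes past the fold. *Atf4* itself stood at 330 FPKM in si*Malat1* and 237 FPKM in siNC, a log2 ratio of 0.48. *Sesn2*, a target of both p53 and ATF4, stood at 12.4 FPKM in si*Malat1* and 8.32 FPKM in siNC, a log2 ratio of 0.57 that passed 1.5-fold at 0.61 under scaling by the median ratio and at 0.60 under the upper quartile. Of the other targets named above, *Bbc3* and *Pmaip1* had log2 ratios of 0.10 and 0.23, both within 1.5-fold. *Gadd45a* was also higher in si*Malat1*, but 1 library per group cannot show whether genes vary together. The part of this pathway in the value of *Gadd45a* was not tested.

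**Figure D4:**
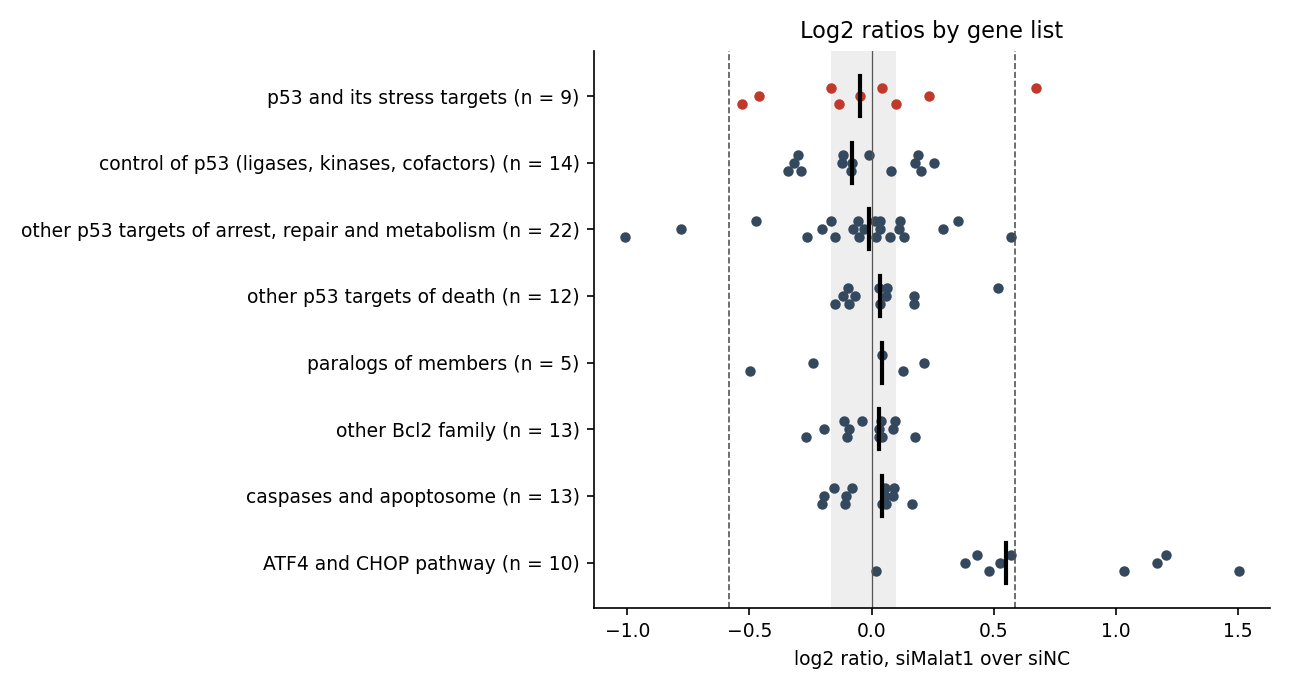
Log2 ratios of si*Malat1* over siNC for p53 and its stress targets (red) and for 7 other lists (dark), with 1 point for each tested gene, black bars at the medians, dashed lines at 1.5-fold and gray shading between the quartiles of all tested genes (-0.16 and 0.10). The medians of the p53 and death lists lie between -0.08 and 0.04, and that of the ATF4 and CHOP list is 0.55. *Bid*, *Apaf1*, *Sesn2* and *Ddit4* appear in more than 1 list.

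Markers of the myoblast and myotube were present in both libraries. On the higher side in si*Malat1*, 3 of 8 were past 1.5-fold, against 2.29% of all tested genes. These were *Myh3* (531 FPKM in si*Malat1* and 304 FPKM in siNC), *Myog* (857 FPKM in si*Malat1* and 525 FPKM in siNC) and *Acta1* (5199 FPKM in si*Malat1* and 3326 FPKM in siNC). The myoblast regulators *Myf5* (17.3 FPKM in si*Malat1* and 23.8 FPKM in siNC) and *Myod1* (95.8 FPKM in si*Malat1* and 113 FPKM in siNC) were the 2 of the 8 with the lower FPKM in si*Malat1*, both within 1.5-fold. Summed FPKM of 5 adipocyte markers were 6.11 in si*Malat1* and 4.97 in siNC, most of it from *Pparg* (5.58 in si*Malat1* and 4.79 in siNC). Those of 5 leukocyte markers were 5.51 in si*Malat1* and 6.99 in siNC, most of it from *Cd14* (4.84 in si*Malat1* and 5.80 in siNC). Summed FPKM of 4 endothelial markers were 0.203 in si*Malat1* and 0.307 in siNC. Those of 5 markers of bone and cartilage were 5.80 in si*Malat1* and 4.80 in siNC, nearly all from *Bglap* (5.77 in si*Malat1* and 4.76 in siNC). *Adipoq*, *Cidec*, *Plin1* and *Ibsp* were listed at 0 in both libraries. In bulk RNA a change in the share of myotubes and a change of level within each cell cannot be told apart, and the part of differentiation state in the value of *Gadd45a* was not tested. The table holds no counts, so no interval for counting error is given.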

How the data were processed

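The authors sequenced paired fragments (50 bp reads), and by their methods and the submitters' processing notes mapped them with TopHat2 2.0.9 to mm9, estimated abundances with Cufflinks 2.1.1 and compared the libraries with Cuffdiff 2.1.1. The gene annotation and strand are not given in the sources used here. The deposited table gives FPKM for each library, made by the authors. It also holds the authors' natural log ratio and significance call, which were not used. Log2 ratios (si*Malat1* over siNC) were taken on FPKM plus 0.1. Genes were counted against a 1.5-fold difference ("tested" in the text) when above 0 in both libraries with a mean of at least 1 FPKM. No p-value was computed, with 1 library per group. The members and lists were chosen with earlier results of these data known. All 10 members are named, and of each list the genes past the fold and the 2 of highest mean FPKM. *Mdm4*, *Cdkn2a*, *Trp63*, *Trp73*, *Gadd45b*, *Eda2r*, *Sesn2*, *4930429B21Rik*, *Apaf1*, *Ddit4*, *Myf5*, *Myod1* and the markers listed at 0 are named outside that rule, and 1 gene that the rule would name is not reported here. *Cop1*, *Tigar* and *Pidd1* of the lists were found under older symbols. Starts of loci were raised by 1, after which the *Trp53* locus spans 11515 bases, as does the gene in GENCODE M21. FPKM hold no counts. Of 1937 genes averaging 0.1 FPKM or less, 635 had ratios within 0.004 (natural log) of 1.085 times a ratio of whole numbers up to 5, against a median of 57 over 91 steps tried, so 1 fragment was worth about 1.085 times as many FPKM in si*Malat1* as in siNC. Promoter windows are from RefSeq (GRCm38.p6). The work used Python 3.11.15, pandas 2.3.3, numpy 2.4.6 and matplotlib 3.10.9, and the code was tested on simulated data. Alternatives were other pseudocounts, scalings, filters and folds, and leaving out genes that share a locus.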

Additional observations from a re-analysis of the deposited data

How the results depend on the processing

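Over the pseudocounts of 0 and 1 FPKM, 3 scalings between the libraries (sum of FPKM, median ratio, upper quartile), the filters on low values and the omission of genes that share a locus, the log2 ratio of *Gadd45a* ranged from 0.62 to 0.71 and stayed past 1.5-fold, and that of *Trp53inp1* ranged from -0.58 to -0.43 and stayed within it. Scaling by the median ratio or the upper quartile brought *Sesn2* past 1.5-fold, so that 5 genes of the other lists were past it on the higher side. The sign of *Mdm2* turned to -0.01 under the sum of FPKM. The median log2 ratio of the members ranged from -0.10 (sum of FPKM) to -0.004 (genes of at least 5 FPKM, or genes that share no locus). At a threshold of 2-fold, 0 members were past it on the higher side and 0 on the lower side. Of the other lists, 4 genes were past 2-fold on the higher side and 1 on the lower side. The share of all tested genes past 2-fold was not taken, so these counts are not read as traits of the lists. At a difference of 25%, 1 member was past it on the higher side and 2 on the lower side. Of the 85 tested genes of the 8 pathway lists, 11 were on the higher side and 5 on the lower side, against 4 and 2 at 1.5-fold. Of all tested genes, 85.1% differed by less than 25%, and their shares on each side at that difference were not taken. With a mean of at least 5 FPKM, 1 gene of the other lists was past 1.5-fold on the lower side. No paired analysis was possible because each group has 1 library. Without replicates or counts, the precision of these ratios is not known, and it is least for genes of few FPKM.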

Other observations

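Genes with an exact p53 decamer at an annotated start site, taken over the whole table and not chosen as p53 targets, had ratios like those of other genes. Of 7769 tested genes with a window, 610 hold the decamer, and their median log2 ratio of si*Malat1* over siNC was -0.03, against -0.04 for genes without it. On the higher side in si*Malat1*, 2.30% of genes with the decamer and 2.17% of genes without it were past 1.5-fold. On the lower side, 1.64% of genes with the decamer and 1.45% of genes without it were past that fold. Start sites with more than 1 window count once per gene, and no test was made. A single decamer was enough to count a gene, while p53 binds pairs. The genes with the decamer are thus not a list of p53 targets, and the comparison cannot show whether such targets differed.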
